A study of Mus musculus with 6 samples.

Results

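The genes described here are the mitochondrial ribosomal protein genes, taken as every gene of the deposited expression table whose symbol starts with Mrpl or Mrps. They were 77 of the 12803 genes listed, 48 named for the large subunit (Mrpl) and 29 for the small subunit (Mrps). All 77 passed the filter on low values. The study sequenced messenger RNA from mouse kidney podocyte cells in culture, podocytes being epithelial cells of the glomerulus that form its filtration slits. The KO group was 3 libraries of a podocyte-derived line with a Myosin 1e KO genotype. The WT group was 3 libraries of the murine podocyte line that the labels name Mundel. No treatment, time point or further allele is given for either group. Each genotype is 1 line, so a difference between the groups is a difference between the lines, and the genotype and other properties of the lines cannot be told apart. A heterozygous genotype that the design text also names was not analysed here.

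Mitochondrial ribosomes sit in the mitochondrial matrix and make the few proteins that mitochondrial DNA encodes, all of them core subunits of the respiratory chain and the ATP synthase. Their ribosomal RNAs come from mitochondrial DNA, while every protein subunit is encoded in the nucleus, translated in the cytosol and imported. Part of the subunits descend from bacterial ribosomal proteins, and part are found only in mitochondrial ribosomes. Several human mitochondrial disorders affect the kidney filter.

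Promoters of 3 members that were higher in the KO line are shown first. In the RefSeq promoter table of GRCm38.p6, 68 of the 77 members matched, with 74 windows, each holding the 250 bases before and 50 bases after an annotated start. Of these genes, Mrpl10 codes for the base of the ribosomal stalk, Mrpl22 for a protein at the exit tunnel, and Mrpl58 for a peptidyl-tRNA hydrolase built into the large subunit. All 3 lie on chromosome 11 and were higher in the KO line, as were 59.1% of the other tested genes of that chromosome. Their log2 fold changes were 0.63, 0.89 and 0.72. Other genes within 1000000 bases had medians of 0.652, 0.312 and 0.642. Mrpl58 was chosen for display after its values were seen. The stretches are Mrpl10 at chr11:97041408-97041559, Mrpl22 at chr11:58171414-58171660 and Mrpl58 at chr11:115403502-115403751, all on the plus strand and upstream of the annotated exons. They are written 5′ to 3′. Capitals mark the NRF1 motif (GCATGCGC or its reverse complement GCGCATGC, Mrpl10 and Mrpl22) and the ETS motif (CCGGAAG, Mrpl22 and Mrpl58).
Mrpl10: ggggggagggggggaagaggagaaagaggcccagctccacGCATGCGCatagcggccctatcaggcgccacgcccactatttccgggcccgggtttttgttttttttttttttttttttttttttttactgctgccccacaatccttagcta
Mrpl22: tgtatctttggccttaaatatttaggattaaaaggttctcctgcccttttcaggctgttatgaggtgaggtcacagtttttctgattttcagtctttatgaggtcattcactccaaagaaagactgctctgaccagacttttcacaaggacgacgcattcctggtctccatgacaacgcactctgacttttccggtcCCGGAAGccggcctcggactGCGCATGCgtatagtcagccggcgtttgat
Mrpl58: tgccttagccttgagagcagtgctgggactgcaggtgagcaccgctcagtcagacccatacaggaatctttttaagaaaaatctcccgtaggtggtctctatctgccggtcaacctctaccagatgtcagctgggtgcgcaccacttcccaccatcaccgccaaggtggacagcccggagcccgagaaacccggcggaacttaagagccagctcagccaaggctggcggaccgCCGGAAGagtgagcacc

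NRF1 and the ETS factor GABP are known to bind promoters of nuclear genes for mitochondrial proteins. All motifs were searched on both strands as exact letters. The ETS and YY1 motifs can overlap, since the last letters of CCGGAAG are the first of AAGATGG, and each was then counted. The NRF1 letters were in 10.8% of the members' windows (8 of 74), in 5.12% of the 12705 windows of all tested genes and in 2.71% of the 32851 windows of the whole table. The ETS letters, or their reverse complement CTTCCGG, were in 33.8% of the members' windows (25 of 74), against 17.4% for tested genes and 8.86% for the whole table. The YY1 letters AAGATGG or CCATCTT were in 17.6% (13), against 6.9% and 6.34%. The E-box CACGTG was in 9.46% (7), against 9.76% and 7.15%. Of the 42 windows of members that were higher in the KO line, 31% held the ETS letters, as did 44% of the 25 windows of members that did not pass the test. The other letters went the other way between these 2 groups. For NRF1 the shares were 14.3% of the windows of higher members and 8% of those that did not pass. They were 19% and 12% for YY1, and 14.3% and 4% for the E-box. The differences between these shares were not tested. A match describes the letters of the window and not a bound site.

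Many members start close to a gene on the other strand, and 3 such stretches are shown because the member was higher and the neighbour lower in the KO line; they were chosen after their values were seen. Each lies between the opposed starts and reads on the member's strand. They are Mrpl30 against Mitd1 at chr1:37890412-37890476 on the plus strand, Mrpl50 against Zfp189 at chr4:49521094-49521175 on the minus strand, and Mrpl57 against Ska3 at chr14:57826186-57826233 on the plus strand. None of the searched motifs lies in the stretches shown, so no letters are in capitals. The promoter window of Mrpl57 held the ETS letters outside the stretch shown, while those of Mrpl30 and Mrpl50 held none of the motifs.
Mrpl30: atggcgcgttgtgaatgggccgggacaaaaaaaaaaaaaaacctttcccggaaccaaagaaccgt
Mrpl50: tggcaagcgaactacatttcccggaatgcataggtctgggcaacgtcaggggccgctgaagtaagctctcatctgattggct
Mrpl57: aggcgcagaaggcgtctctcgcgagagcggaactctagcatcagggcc

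Library totals were 35447096 to 41360689 reads in listed genes in the KO line and 35763961 to 42106461 in the WT line. Correlations of log2 CPM (counts per 1000000 reads) across genes were 0.988 to 0.994 within a line and 0.686 to 0.703 between the lines, with genes not being independent replicates. Myo1e, the targeted motor protein, was at 18.9, 16.3 and 16.8 CPM in KO libraries, against 184, 180 and 168 CPM in WT libraries (log2 fold change -3.35, limma adjusted p = 2.06e-08; exact two-sided permutation p = 0.1, the smallest that 3 libraries against 3 allow). The cell type on the labels was only partly borne out. Of 11 podocyte markers 8 were in the table, where 2 were higher (Podxl and Cd2ap) and 4 lower (Synpo, Wt1, Plce1 and Kirrel) in the KO line. Nphs1 and Ptpro, which mark the mature slit diaphragm or foot process, were not among the genes analysed here. All 9 markers of simple epithelium were higher in the KO line, with Cldn3, Cldn7 and Esrp1 at 0 reads in the WT line, and all 7 tested mesenchymal markers were lower. The summed level was 6987 to 7477 CPM in KO libraries, against 1.06 to 1.19 CPM in WT libraries, for the epithelial markers. For the mesenchymal markers it was 15.9 to 19.1 CPM in KO libraries, against 2616 to 3034 CPM in WT libraries. For the 8 podocyte markers it was 1776 to 1998 CPM in KO libraries, against 2690 to 3024 CPM in WT libraries. The largest part of the podocyte sum was Actn4, which did not pass, at a mean of 1025 CPM in KO cells, against 944 CPM in WT cells. Plce1 averaged 1.37 CPM in KO cells, against 226 CPM in WT cells, and Wt1 0.12 CPM, against 4.40 CPM. Of 3 leukocyte markers only Cd68 was listed, at 2.35 ± 0.274 CPM in KO cells, against 2.74 ± 0.755 CPM in WT cells, and none of the 3 endothelial markers was. The part of this difference in cell state in the results on mitochondrial ribosomal genes was not tested. In bulk RNA, fewer cells of a type and less RNA per cell cannot be told apart.

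KO replicate 3 stood apart from the other KO libraries in the genes described here. It was the highest of the 3 KO libraries in 75 of 77 members (97.4%, against 38.8% of all genes tested), Mrps2 and Mrps5 being the exceptions, and the highest of all 6 in 63. The median log2 level of the members was 0.248 higher in KO replicate 3 than in the mean of KO replicates 1 and 2, against 0.001 over all genes. The same library was the highest KO library for 79 of 79 cytosolic ribosomal protein genes and 76 of 78 genes of the respiratory chain and ATP synthase. Among other genes split into 4 equal classes by exon length, the shortest class was shifted by 0.134 and the longest by -0.122 in this library, while the members were shifted by 0.248 in the shortest class and 0.299 in the longest. The part of transcript length or of the library in the results was not tested, and counts are given with and without this library.

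The mitochondrial ribosomal protein genes were on the whole modestly higher in the KO line. Of the 77 members 45 were higher (58.4%), 5 were lower (6.49%) and 27 did not pass the test (limma, Benjamini-Hochberg adjusted p under 0.05 over all 12616 genes tested). The lines differed in most genes. Over all genes tested 68.1% passed, 34.3% higher and 33.8% lower in the KO line. The share of members that passed (64.9%) was thus near the background, and the difference lay in how the calls divided between higher and lower. The median log2 fold change of the members was 0.361, with quartiles of 0.133 and 0.506, against a median of 0.014 for all genes. It was positive in 62 members and negative in 15.

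The sizes were small beside those of the transcriptome. At least 2-fold separated the lines in 5 members that passed, 4 higher and 1 lower, against 27.9% of all genes tested (11.7% higher and 16.2% lower). The SD of the log2 fold changes was 0.439 over the members and 2.065 over all genes. The groups did not overlap, with the KO line higher, in 53 members, against 37.2% of all genes tested, and with the KO line lower in 5, against 36.4%. Without KO replicate 3, 41 members were higher and 10 lower, with a median of 0.281. Of all 12616 genes tested, 4128 were higher and 4137 lower without that library, against 4329 and 4261 with all libraries. The 5 members that were lower with all libraries were lower without KO replicate 3 too. They were joined by Mrpl3, Mrpl11, Mrpl46, Mrpl47 and Mrps16, named here after their values were seen.

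**Figure D1:**
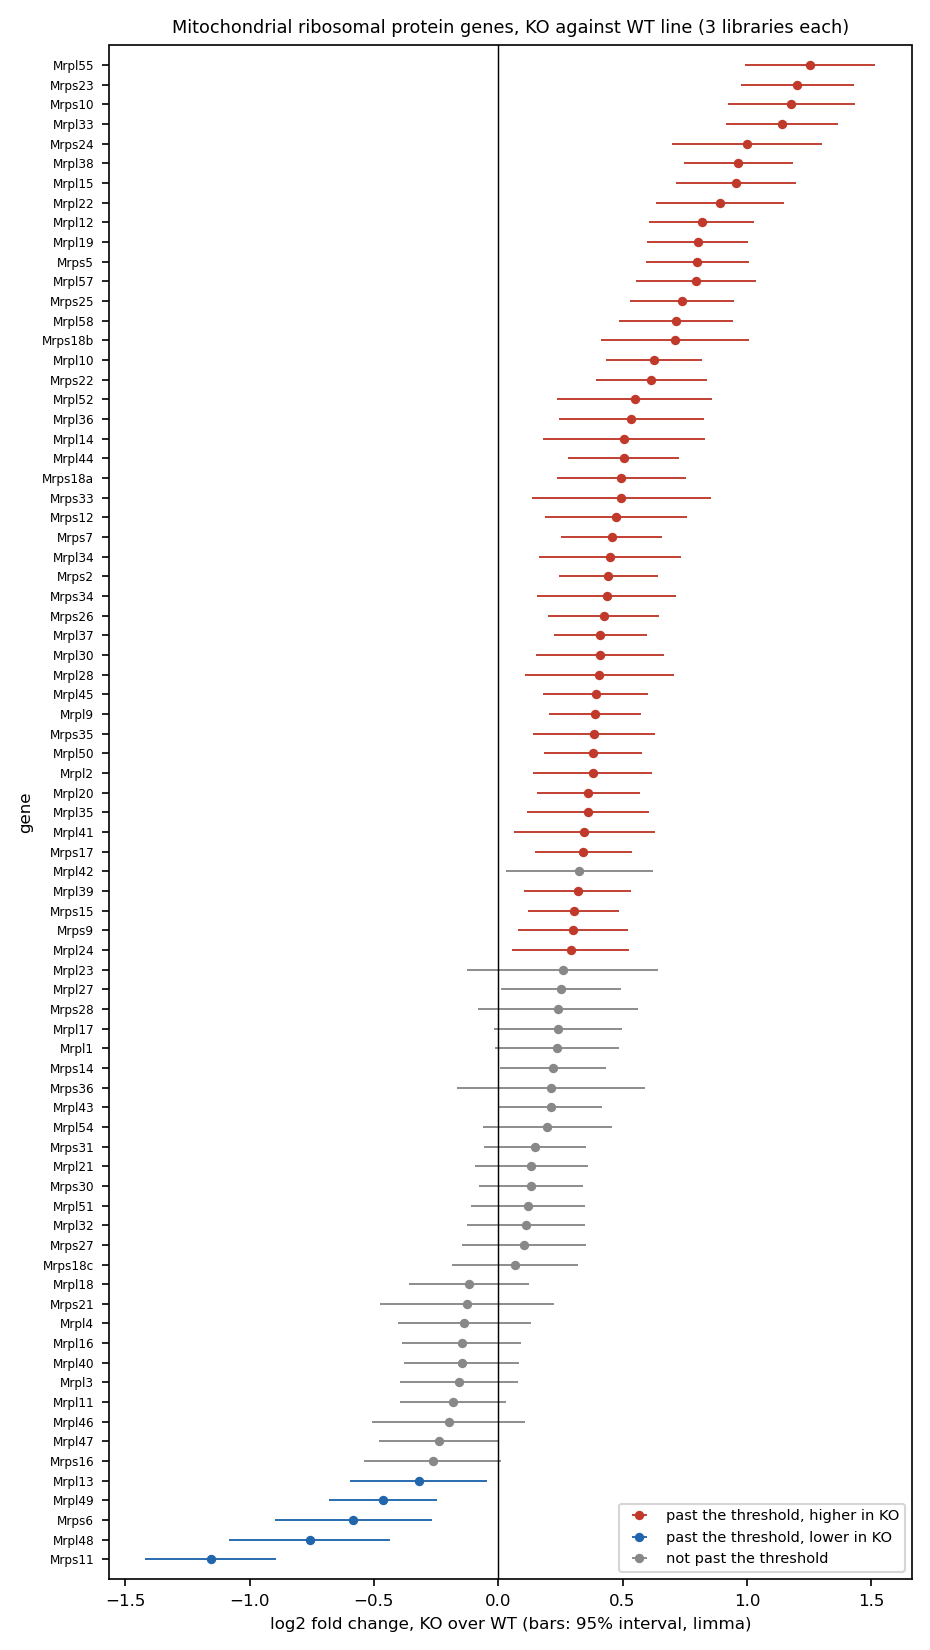
Log2 fold change of each of the 77 mitochondrial ribosomal protein genes (KO over WT, x axis), ordered by value down the y axis, with 95% limma intervals from 3 libraries per line. Red points passed the threshold as higher in the KO line (45), blue points as lower (5), and grey points did not pass (27).

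Summed over all 77 members, the members stood at 2686, 2659.6 and 3175.6 CPM in KO libraries, against 2264, 2257.1 and 2235.2 CPM in WT libraries. Every KO library was above every WT library, and the WT sums lay close together while KO replicate 3 was highest. Their mean was 2840.4 ± 291 CPM in KO cells, against 2252.1 ± 15 CPM in WT cells (SD, n = 3 each), a ratio of 1.261, or 1.187 with KO replicates 1 and 2 alone. As a share of reads in listed genes, the members took 0.264%, 0.263% and 0.323% in KO libraries, against 0.230%, 0.228% and 0.221% in WT libraries. The median SD of a member's log2 CPM was 0.152 in the KO line and 0.069 in the WT line. Over all genes the median SD was 0.133 in the KO line and 0.130 in the WT line, so the members spread less than other genes in the WT line and slightly more in the KO line, a description with no test.

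**Figure D2:**
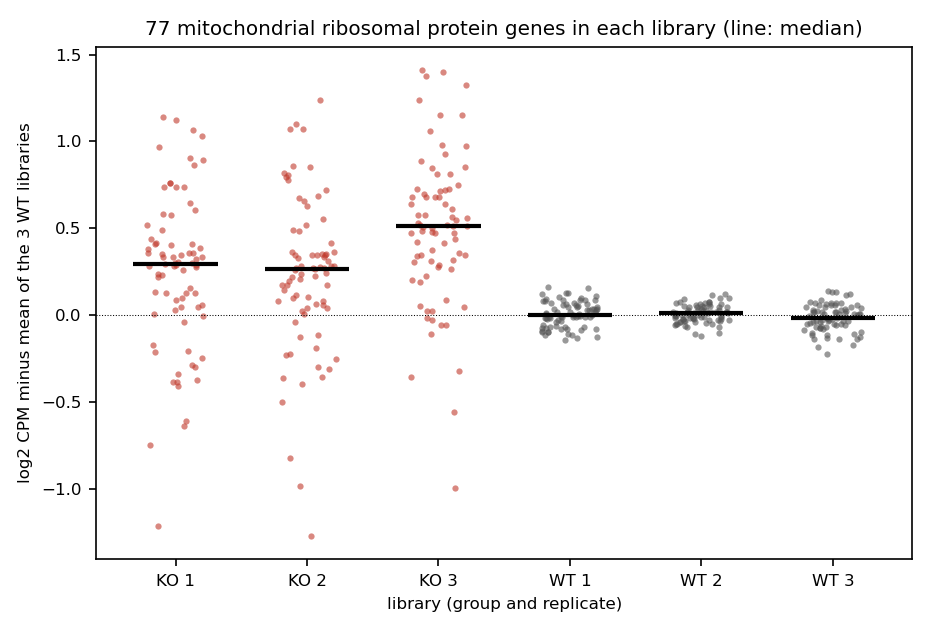
Each point is 1 of the 77 member genes in 1 library, as log2 CPM minus the mean of the 3 WT libraries (y axis), with the median as a line. The medians were 0.30, 0.27 and 0.51 in KO replicates 1 to 3 and 0.00, 0.01 and -0.01 in WT replicates 1 to 3, which are centred on their own mean.

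The 4 members that rose at least 2-fold on the fitted scale were Mrpl55, Mrps23, Mrps10 and Mrpl33. Mrpl55 (ENSMUSG00000036860, GRCm38, chromosome 11, 59202486 to 59206134, plus strand) codes for a large-subunit protein. It was at 22.3, 24.1 and 27.1 CPM in KO libraries, against 10.8, 10.1 and 9.73 CPM in WT libraries. The KO libraries were all more than 2-fold above the WT libraries (log2 fold change 1.25, SE 0.11, limma adjusted p = 2.15e-05). Mrps23 (chromosome 11, 88204388 to 88211507, plus strand), a small-subunit protein with no bacterial counterpart, was at 66.3, 63.2 and 79.2 CPM in KO libraries, against 29.9, 29.8 and 30.5 CPM in WT libraries. The WT libraries hardly differed, and the lowest KO library was about the double of the highest WT library (log2 fold change 1.20, SE 0.10, adjusted p = 1.11e-05). Mrps10 (chromosome 17, 47368887 to 47381417, plus strand), the counterpart of bacterial S10 in the head of the small subunit, was at 32.1, 32.96 and 39.9 CPM in KO libraries, against 14.8, 15.2 and 16.2 CPM in WT libraries (log2 fold change 1.18). Mrpl33 (chromosome 5, 31596935 to 31664384, plus strand) was at 63.7, 65.4 and 78.0 CPM in KO libraries, against 32.5, 29.7 and 31.3 CPM in WT libraries (log2 fold change 1.14). Its annotated exons share 3.56% of their length with Gm43809 on the same strand. In none of these 4 did the lines overlap.

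The next largest rises were those of Mrps24, Mrpl38, Mrpl15, Mrpl22, Mrpl12 and Mrpl19. Mrps24, the counterpart of bacterial S3, averaged 34.7 ± 5.49 CPM in KO cells, against 17.3 ± 1.40 CPM in WT cells (log2 fold change 1.00), and its annotated exons share 15.4% of their length with Urgcp on the same strand, so its reads are uncertain. Mrpl38, a protein of the central protuberance of the large subunit, averaged 73.8 ± 8.46 CPM in KO cells, against 37.6 ± 1.11 CPM in WT cells (log2 fold change 0.97). Mrpl15 averaged 55.3 ± 7.02 CPM in KO cells, against 28.4 ± 1.31 CPM in WT cells. Mrpl22 was at 22.3, 23.9 and 27.4 CPM in KO libraries, against 12.6, 13.1 and 13.8 CPM in WT libraries, again without overlap. Mrpl12, the stalk protein that contacts translation factors, was at 58.4, 56.7 and 67.7 CPM in KO libraries, against 34.9, 35.6 and 32.9 CPM in WT libraries (log2 fold change 0.82). Of its exon length, 13.1% overlaps Gm16755 on the opposite strand. Mrpl19 averaged 43.0 ± 2.32 CPM in KO cells, against 24.7 ± 1.37 CPM in WT cells, and 36% of its exon length overlaps Gcfc2 on the opposite strand. The strand setting of the counting is not given in the sources used here, so reads of opposed genes could not be told apart with certainty.

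Mrps11 moved most in the other direction. It codes for the counterpart of bacterial S11, on the platform of the small subunit, and lies on chromosome 7, 78783119 to 78792989, plus strand. Mrps11 was at 18.1, 17.4 and 21.1 CPM in KO libraries, against 46.9, 41.1 and 38.4 CPM in WT libraries. All KO libraries were well below all WT libraries (log2 fold change -1.16, SE 0.11, limma adjusted p = 3.52e-05). Mrpl48, of the large subunit, was at 6.52, 5.54 and 7.43 CPM in KO libraries, against 10.8, 10.9 and 11.1 CPM in WT libraries (log2 fold change -0.76, adjusted p = 0.00149). Mrps6, the counterpart of bacterial S6, which pairs with S18 on the platform, was at 23.1, 19.95 and 28.2 CPM in KO libraries, against 34.8, 32.5 and 38.7 CPM in WT libraries (log2 fold change -0.58, adjusted p = 0.00526). Its highest KO library was below its lowest WT library. Mrpl49 was at 51.6, 61.0 and 62.7 CPM in KO libraries, against 85.1, 78.3 and 77.5 CPM in WT libraries (log2 fold change -0.46, adjusted p = 0.00244).

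The fifth member past the threshold, Mrpl13, is named because so few were lower. It averaged 49.3 ± 8.23 CPM in KO cells, against 61.1 ± 3.28 CPM in WT cells, its groups overlapped, and its call was near the threshold (log2 fold change -0.32, limma adjusted p = 0.0412), which it missed without KO replicate 1 or 2 or WT replicate 2 or 3 and in a fit without the intensity trend. All 5 members that were lower share exon sequence with another annotated gene. For Mrps11 this is Mrpl46 (7.97% of its exon length), for Mrpl48 Rab6a (8.68%), for Mrpl49 Syvn1 (4.85%) and for Mrpl13 Mtbp (4.16%), all on the opposite strand, and for Mrps6 Slc5a3 and Gm49711 on the same strand (19.9%). Of the 45 members with no such overlap 29 were higher and 16 did not pass. Of the 32 members with overlap 16 were higher, 5 lower and 11 did not pass. The part of shared reads in these counts was not tested. Mrpl23, Mrpl48 and Mrps36 also have annotated pseudogenes with which reads could have been shared.

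**Figure D3:**
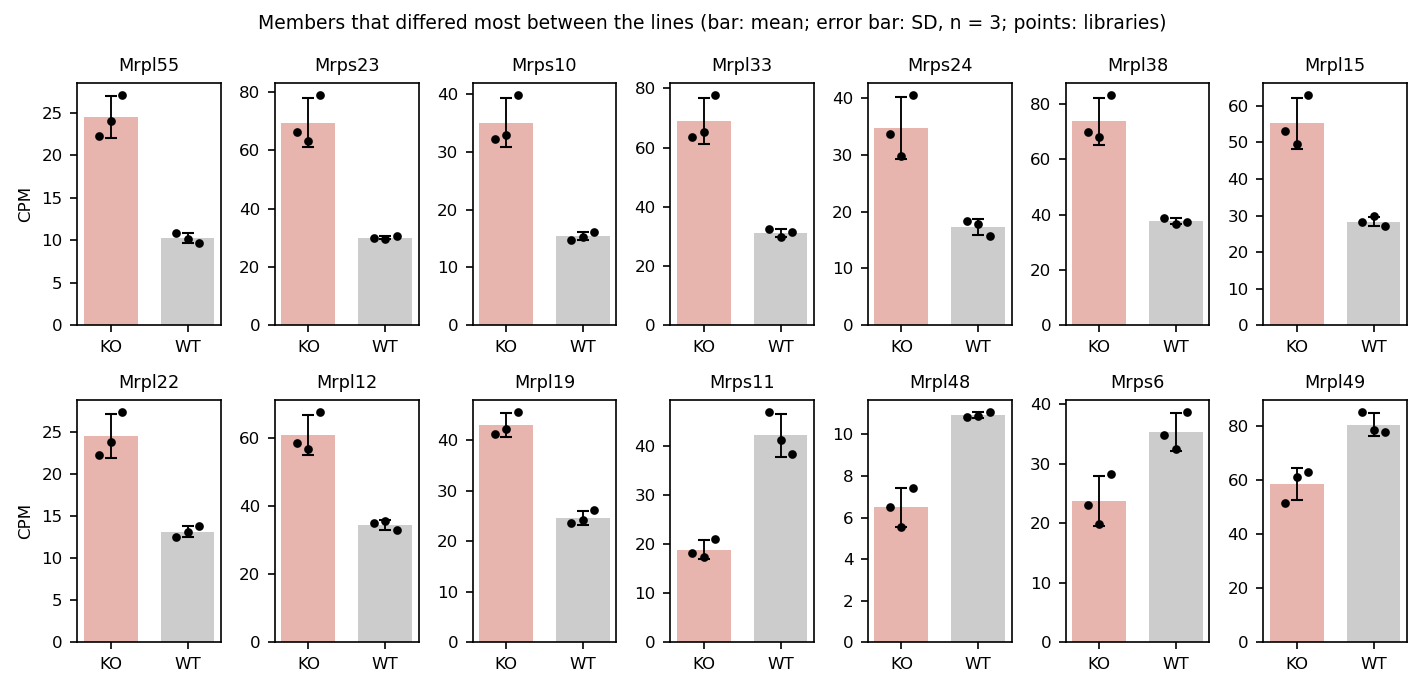
Levels in CPM (y axis, from 0, scaled for each gene) of the 10 members that rose most and of the 4 that fell with groups that do not overlap, KO line left of WT line. Bars are means with SD of 3 libraries and points are the libraries; the 3 KO points lie all above or all below the 3 WT points in each of these 14 genes.

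Most members of both subunits were higher. The level summed over the 50 large-subunit members (Mrps18a and Mrps30 included, whose proteins sit in the large subunit) was 1863, 1861.8 and 2231.9 CPM in KO libraries, against 1603.5, 1594.6 and 1574.7 CPM in WT libraries, a ratio of means of 1.248. Over the 26 small-subunit members it was 818.72, 793.36 and 938.63 CPM in KO libraries, against 656.12, 658.31 and 657.16 CPM in WT libraries, a ratio of 1.294. For neither subunit did the lines overlap. Of the large-subunit members 28 were higher and 3 lower (median log2 fold change 0.354), and of the small-subunit members 17 were higher and 2 lower (0.406). The remaining member, Mrps36, is known as a component of the alpha-ketoglutarate dehydrogenase complex and not of the ribosome. It had the lowest CPM of the members, at 4.56 ± 0.374 CPM in KO cells, against 3.95 ± 0.507 CPM in WT cells, and did not pass (adjusted p = 0.277).

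By origin, 26 of the 46 members with a bacterial counterpart were higher and 3 lower (median log2 fold change 0.323). Of the 30 members counted as specific to mitochondria 19 were higher and 2 lower (0.389). Mrps18a and Mrps18b were counted among these 30 and were higher, although both are related to bacterial S18. The 10 small-subunit members among these 30, Mrps18b included, all had positive log2 fold changes, 8 of them past the threshold, with a median of 0.465. The groups were described by their counts, and the differences between them were not tested.

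The paralogs Mrps18a, Mrps18b and Mrps18c are related to the same bacterial protein, S18, and occupy different places, in the large subunit for Mrps18a and in the small subunit for the others. Mrps18b was at 24.1, 27.1 and 32.02 CPM in KO libraries, against 15.6, 16.5 and 18.6 CPM in WT libraries (log2 fold change 0.71, limma adjusted p = 0.0013). Mrps18a was at 34.5, 36.0 and 44.4 CPM in KO libraries, against 25.7, 27.0 and 28.4 CPM in WT libraries (0.50, adjusted p = 0.00438). Both were higher in every KO library than in any WT library. Mrps18c, which stands in the bacterial S18 position, was at 15.9, 16.8 and 18.8 CPM in KO libraries, against 16.8, 15.1 and 17.0 CPM in WT libraries. Its groups overlapped and it did not pass (0.07, 95% interval -0.19 to 0.32, adjusted p = 0.605). The difference between the paralogs was not tested. Exons of Mrps18c overlap Gm43511 on the same strand over 23.2% of their length, and those of Mrps18b overlap the antisense gene Gm16279 over 30.5%.

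Per kilobase of annotated exon, member levels had a median of 13.5 CPM per kb in the KO line and 11.8 CPM per kb in the WT line. They ran between 0.797 (Mrpl48) and 55.6 (Mrpl10) in the KO line and between 0.907 (Mrpl23) and 42.8 (Mrpl49) in the WT line. Most subunits are present as a single copy in each ribosome, and their transcripts spanned this range. The order of the members was much alike in both lines (Spearman rho 0.916 across the 77 members, a description since both lines share the lengths). The length is that of all annotated exons merged, which understates genes with long, rarely used exons. The fold change showed little relation to the level (rho 0.057 across members).

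The 5 members highest per kilobase over both lines were Mrpl10, Mrpl34, Mrpl54, Mrpl14 and Mrpl43. Mrpl10 was at 91.5, 90.2 and 103 CPM in KO libraries, against 65.3, 58.7 and 60.5 CPM in WT libraries (log2 fold change 0.63, limma adjusted p = 0.000215). On the opposite strand, Gm11574 overlaps 14.1% of the exon length of Mrpl10, and Twnk 33.4% of that of Mrpl43. Mrpl34 averaged 30.1 ± 4.30 CPM in KO cells, against 21.9 ± 1.91 CPM in WT cells (0.45, adjusted p = 0.0118). Mrpl14 averaged 43.1 ± 8.25 CPM in KO cells, against 30.1 ± 3.04 CPM in WT cells (0.51, adjusted p = 0.0121). Mrpl54, at 36.7 ± 5.21 CPM in KO cells, against 31.8 ± 1.42 CPM in WT cells, did not pass, and neither did Mrpl43, at 63.0 ± 5.87 CPM in KO cells, against 54.3 ± 2.74 CPM in WT cells (adjusted p = 0.15 and 0.0668). The members with the smallest changes were Mrps18c, Mrps27, Mrpl32, Mrpl18 and Mrpl51, with log2 fold changes of 0.07, 0.10, 0.11, -0.12 and 0.12. None of the 5 passed, and their 95% intervals all included 0 and lay between -0.36 and 0.35.

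The genes are scattered over 17 chromosomes. The median log2 fold change of the members had the same sign as that of the other tested genes of the chromosome on 11 of them and the opposite sign on 6, and it was above theirs on 16 of the 17. On chromosome 11, with 11 members, 10 were higher and the other, Mrpl27, did not pass, with a median log2 fold change of 0.819. The 1017 other tested genes of that chromosome had a median of 0.417, and 59.1% of them were higher. On chromosome 19, 1 of 5 members was lower and 4 did not pass, with a median of -0.147 against -0.406 for the 439 other genes. On chromosome 17, 7 of 8 members were higher, with a median of 0.465 against 0.104. The single member on chromosome 15, Mrpl13, had -0.32 against a median of -0.36 for the others. On chromosome 9 the 3 members had a median of -0.136 against 0.063, and on chromosome 3 the 5 members had 0.241 against -0.177.

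Relative to the median of the other tested genes of its own chromosome, a member was on average still above. The median of these differences was 0.300 on the log2 scale, 64 of 77 members were above their chromosome's median, and the SD over members was 0.360 in place of 0.439. Outside chromosome 11, 35 of 66 members were higher (53%) and 5 lower, with a median log2 fold change of 0.311. Across the 72 members with at least 5 tested genes around them, the fold change and the median fold change of other genes within 1000000 bases had a Spearman rho of 0.548. Neighbouring members share surrounding genes, so this is a description.

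**Figure D4:**
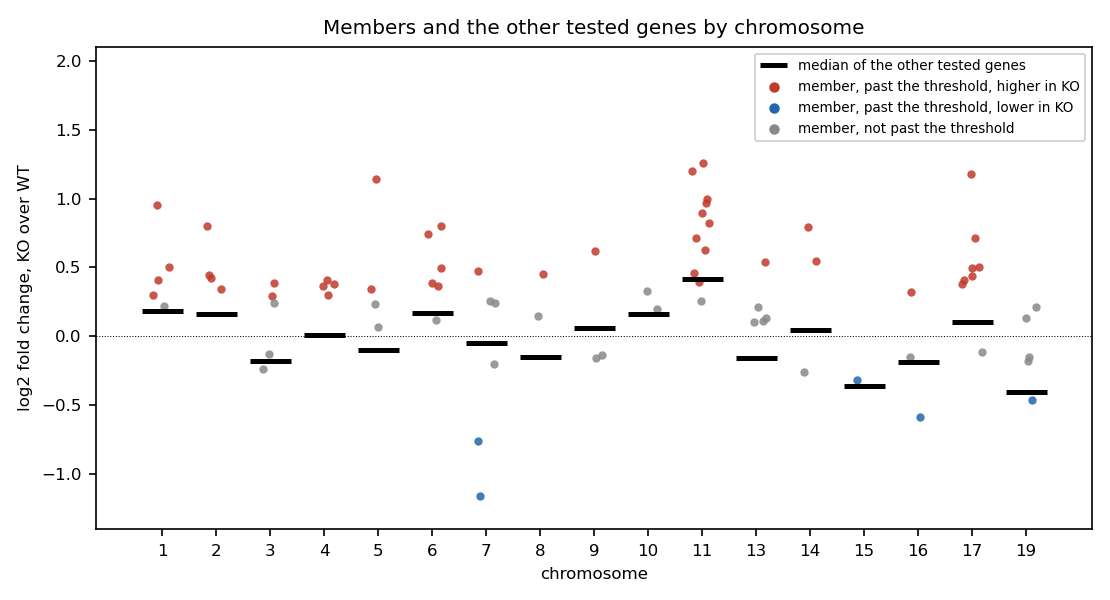
Log2 fold change of each member (points, y axis) by chromosome (x axis), with the median of the other tested genes of that chromosome as a black bar. Members sit above the bar in 64 of 77 cases; chromosome 11 has the highest bar at 0.417 and 10 red points.

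Of the members, 31 have a tested gene outside the family starting within 1000 bases of their own start, on the opposite strand in 30 of the 31 pairs. Of the 31 neighbours 9 were higher and 9 lower in the KO line (29% each) with a median log2 fold change of -0.122, while 13 did not pass. These shares were near those over all genes tested, 34.3% higher and 33.8% lower. Both genes were higher in 8 pairs and both lower in 2, while in 4 the member was higher and the neighbour lower. The pair counts were not tested. The largest changes among neighbours were those of 2610507I01Rik next to Mrpl55, Wdfy1 next to Mrpl44, Eme1 next to Mrpl27, Slc5a3 next to Mrps6 and Tmem63b next to Mrpl14.

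Wdfy1, a FYVE-domain protein whose start lies 125 bases from that of Mrpl44, averaged 15.2 ± 0.984 CPM in KO cells, against 107 ± 10.8 CPM in WT cells (log2 fold change -2.82, limma adjusted p = 8.37e-08). Mrpl44 itself, with an RNase III fold, was at 26.5, 28.4 and 31.4 CPM in KO libraries, against 20.4, 20.46 and 19.8 CPM in WT libraries (0.50, adjusted p = 0.00176), so the pair moved in opposite directions. Eme1, a partner of a DNA endonuclease, averaged 0.895 ± 0.415 CPM in KO cells, against 4.87 ± 1.45 CPM in WT cells (-2.49), while Mrpl27 did not pass (0.25, adjusted p = 0.0606). Tmem63b, an ion channel, averaged 363 ± 7.94 CPM in KO cells, against 105 ± 5.06 CPM in WT cells (1.79), and 11.2% of the exon length of Mrpl14 overlaps it. Slc5a3, the sodium/myo-inositol cotransporter, starts 52 bases from Mrps6 on the same strand. It averaged 21.2 ± 2.32 CPM in KO cells, against 78.3 ± 13.9 CPM in WT cells (-1.88), and both genes were lower. 2610507I01Rik averaged 3.05 ± 0.741 CPM in KO cells, against 0.413 ± 0.271 CPM in WT cells (2.95). In the 3 pairs whose sequences are printed above, Mitd1 had -1.06, Zfp189 -0.42 and Ska3 -1.002, beside 0.41, 0.38 and 0.80 for Mrpl30, Mrpl50 and Mrpl57. Zfp189 was close to the threshold (adjusted p = 0.0292). It missed the threshold with quantile normalization and when KO replicate 1 or 2 or WT replicate 1 or 2 was left out, at 0.0809 to 0.157. Its call was also lost with replicate number as a block in the fit. The only neighbouring members, Mrpl46 and Mrps11, start 412 bases apart on opposite strands, and Mrpl46 (-0.20, adjusted p = 0.215) did not pass while Mrps11 was lower.

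Of 5 subunits of the mitochondrial ribosome with other symbols 3 were higher (60%, against 34.3% of all genes tested) and 2 did not pass. Ptcd3, a pentatricopeptide-repeat protein of the small subunit, averaged 60.5 ± 3.22 CPM in KO cells, against 41.3 ± 3.22 CPM in WT cells (log2 fold change 0.55, limma adjusted p = 0.000594). Chchd1 (0.48, adjusted p = 0.00513) and Aurkaip1 (0.40, adjusted p = 0.0127) of the small subunit were higher as well. Dap3, a GTP-binding protein of the small subunit, averaged 62.5 ± 1.61 CPM in KO cells, against 70.0 ± 0.247 CPM in WT cells, not past the threshold (-0.16, adjusted p = 0.0597), but was past it without KO replicate 3 (adjusted p = 0.0483, the lowest of its alternatives, which reached 0.154). Gadd45gip1, of the large subunit, did not pass (-0.13, adjusted p = 0.213).

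Genes for assembling and modifying the mitochondrial ribosome had 19 of 32 higher (59.4%) and 2 lower (6.25%), with a median log2 fold change of 0.351. The shares over all genes tested were 34.3% and 33.8%. Trmt61b, a methyltransferase of mitochondrial RNAs, averaged 7.74 ± 0.683 CPM in KO cells, against 2.23 ± 0.249 CPM in WT cells (1.78, limma adjusted p = 2.12e-05). The annotation used here gives its locus the type antisense, and with the strand setting unknown its reads cannot be told apart from those of genes on the other strand. Rpusd3, a pseudouridine synthase, and Mrm1, a ribose methyltransferase of the large ribosomal RNA, were higher by 0.91 and 0.83. The GTPase gene Gtpbp6 averaged 18.1 ± 3.39 CPM in KO cells, against 31.8 ± 2.03 CPM in WT cells (-0.83, adjusted p = 0.000811). Mterf3 was lower by less (-0.32, adjusted p = 0.032), and missed the threshold with quantile normalization and without KO replicate 1, WT replicate 2 or WT replicate 3.

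Of 16 tested mitochondrial translation factors 8 were higher (50%) and 2 lower (12.5%), with a median log2 fold change of 0.247. The shares over all genes tested were 34.3% and 33.8%. The initiation factor Mtif2 averaged 46.1 ± 4.24 CPM in KO cells, against 23.8 ± 0.452 CPM in WT cells (0.95, limma adjusted p = 3.22e-05), and the translational activator of cytochrome oxidase subunit I, Taco1, had 0.88. Tsfm, the exchange factor of the elongation factor Tufm, had 0.81. The methionine aminopeptidase Metap1d (-0.65, adjusted p = 0.000283) and the release factor Mtrf1l (-0.50, adjusted p = 0.014) were lower, Mtrf1l missing the threshold with quantile normalization and without KO replicate 2 or WT replicate 2. Of 20 genes for charging mitochondrial tRNAs 9 were higher (45%) and 2 lower (10%), with a median of 0.214. Vars2, for valine, averaged 39.3 ± 2.66 CPM in KO cells, against 19.4 ± 2.27 CPM in WT cells (1.02), and Mars2 and Ears2 had 0.82 and 0.68. Cars2, for cysteine, averaged 19.3 ± 1.26 CPM in KO cells, against 42.0 ± 1.93 CPM in WT cells (-1.12, adjusted p = 1.08e-05). Pars2 was close to the threshold (-0.32, adjusted p = 0.0403). It missed the threshold with quantile normalization and when KO replicate 1 or 2 or WT replicate 2 or 3 was left out, at 0.102 to 0.224. Its call was also lost with replicate number as a block in the fit.

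**Figure D5:**
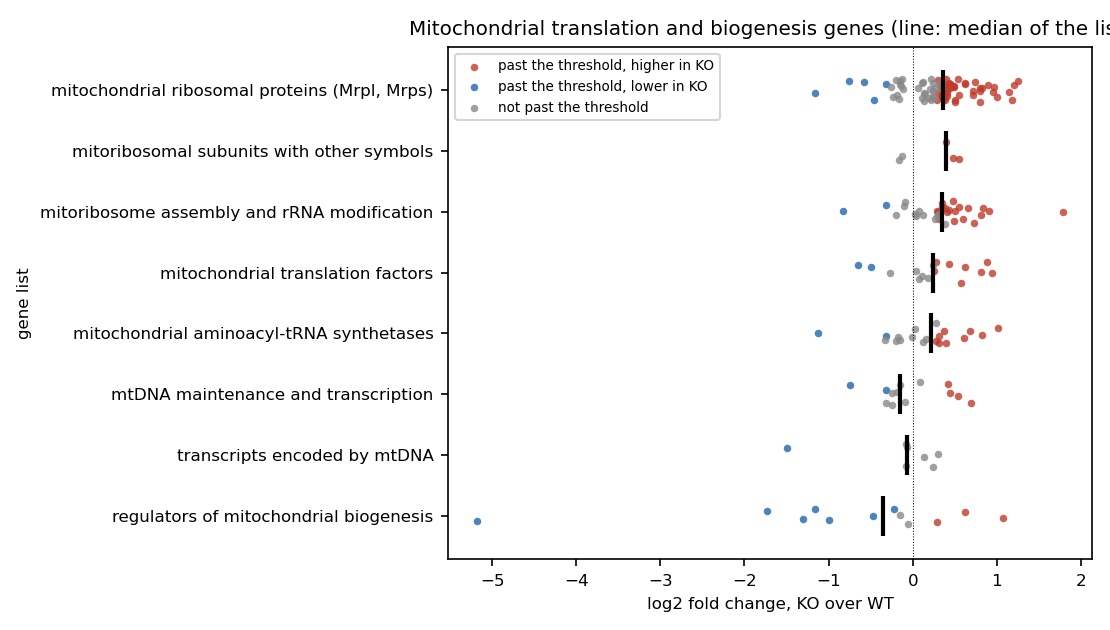
Log2 fold change (x axis, KO over WT) of every tested gene of 8 gene lists (y axis), coloured by the limma call, with the list median as a line. The highest median was 0.397, for the subunits with other symbols, next to 0.361 for the Mrpl and Mrps genes, and the lowest was -0.352, for regulators of mitochondrial biogenesis.

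Genes for mitochondrial DNA and its transcripts went both ways or did not pass. Of 13 tested genes for its maintenance and transcription 4 were higher (30.8%) and 2 lower (15.4%), with a median log2 fold change of -0.155. The shares over all genes tested were 34.3% and 33.8%. Tefm, Ssbp1 and Tfb2m had 0.69, 0.53 and 0.44, and the exonuclease Mgme1 and the polymerase Polg had -0.75 and -0.32. Of 15 transcripts encoded by mitochondrial DNA 7 were tested, of which 1 was lower and 6 did not pass, while 2 were called higher under quantile normalization and 1 without KO replicate 3 or without WT replicate 3. The lower gene, mt-Nd6, lies on the strand opposite to the other protein-coding genes, so its reads could not be told apart with certainty. It averaged 5.70 ± 2.30 CPM in KO cells, against 15.3 ± 3.40 CPM in WT cells (-1.49, adjusted p = 0.00365). In this list KO replicate 3 was the highest KO library for 1 gene of 7. It was the highest for 5 of 5 subunits with other symbols and 22 of 32 assembly and modification genes. The same held for 12 of 16 translation factors, 14 of 20 genes for charging tRNAs and 8 of 13 maintenance and transcription genes. For the regulators described next it was 4 of 12, and over all genes tested 38.8%.

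Most tested regulators of mitochondrial biogenesis were lower. Of 12 tested 3 were higher (25%) and 7 lower (58.3%), with a median log2 fold change of -0.352. The shares over all genes tested were 34.3% and 33.8%. Ppargc1a, the coactivator PGC-1alpha, averaged 0.255 ± 0.170 CPM in KO cells, against 9.08 ± 0.563 CPM in WT cells (-5.17, limma adjusted p = 5.45e-06). Its relative Ppargc1b averaged 1.05 ± 0.228 CPM in KO cells, against 3.56 ± 0.829 CPM in WT cells (-1.73). Gabpb2, a subunit of the GA-binding protein, an ETS factor, averaged 39.5 ± 4.68 CPM in KO cells, against 97.6 ± 8.503 CPM in WT cells (-1.31, adjusted p = 1.15e-05). The higher genes were Myc, at 97.0 ± 11.6 CPM in KO cells, against 47.2 ± 13.8 CPM in WT cells (1.07, adjusted p = 0.00109), the nuclear receptor Esrra (0.63) and Gabpb1 (0.29), which missed the threshold in 4 alternatives. Nrf1, whose letters were searched in the promoters, averaged 27.4 ± 0.896 CPM in KO cells, against 28.7 ± 3.88 CPM in WT cells, not past the threshold (-0.06, adjusted p = 0.666). Of the factors behind the other letters searched, Gabpa, the subunit of GABP that binds DNA, averaged 43.5 ± 3.17 CPM in KO cells, against 86.3 ± 2.27 CPM in WT cells (-0.99, adjusted p = 1.08e-05). Yy1 averaged 118 ± 4.37 CPM in KO cells, against 138 ± 7.95 CPM in WT cells (-0.23, adjusted p = 0.0251), and missed the threshold without KO replicate 2, WT replicate 2 or WT replicate 3, at 0.0779 to 0.0902. Nrf1, Gabpa and Yy1 were named after their values were seen.

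Other protein families of mitochondria and translation are set beside the members for scale. Of 79 cytosolic ribosomal protein genes, taken by their Rpl and Rps symbols, 60 were higher (75.9%) and 1 lower (1.27%), with a median log2 fold change of 0.482. Of 78 genes of the respiratory chain and ATP synthase encoded in the nucleus 30 were higher (38.5%) and 5 lower (6.41%), with a median of 0.235. Over all genes tested 34.3% were higher and 33.8% lower. The higher share of the respiratory chain was thus near the background, while its lower share was below it. Its log2 fold changes were positive in 64 of 78 genes. Relative to the WT line, the median difference of KO replicates 1 and 2 alone was 0.360 for the cytosolic ribosomal genes, 0.281 for the mitochondrial ribosomal genes and 0.134 for the respiratory chain. The differences between these families were not tested.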

How the data were processed

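Messenger RNA of 3 KO and 3 WT libraries was sequenced. Per the labels' protocols, libraries were made with a stranded mRNA kit. The submitters' processing notes name STAR 2.7.3a, Trimmomatic 0.39, Subread 1.6.4 with featureCounts, and edgeR, with the build GRCm38; the annotation and the strand setting are not given in the sources used.

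The authors deposited 1 table of log2 CPM. Its low values were whole multiples of a step (100% within 0.001), from which reads were recovered. CPM in the text are those reads over the authors' scaled library size, without the prior. Lengths and positions come from GENCODE M21 (GRCm38, counted from 1), where 12673 symbols were found, and promoters from the RefSeq table of GRCm38.p6.

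The test was limma 3.58.1 in R 4.3.3 on the deposited log2 values, with an intensity trend, KO minus WT, no covariates, over the 12616 genes with log2 CPM above 0 in at least 3 libraries, at a Benjamini-Hochberg adjusted p under 0.05. It was checked on simulated data. The design text calls the replicates biological without further detail, so p-values cover the spread among these libraries. Alternatives were other filters, priors, scalings, voom on the reads, a fit without the trend, a block and each library left out.

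The members and the gene lists were chosen with earlier results of these data known. Named were the 10 largest rises and up to 10 falls with groups that do not overlap, the 5 highest levels per kb, the 5 smallest changes, the Mrps18 paralogs, subunits with other symbols, up to 3 risen and 3 fallen genes per list, and the 5 start neighbours that changed most.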

Additional observations from a re-analysis of the deposited data

How the results depend on the processing

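Over 15 alternatives the number of members higher in the KO line was 41 to 51 (45 in the fit as reported) and the number lower 4 to 10 (5 as reported). The highest count of higher members, 51, came with quantile normalization, which moved the median of all genes to 0.061 from 0.014. Leaving out each library in turn gave 41 to 47 higher and 4 to 10 lower, with a median log2 fold change of 0.281 to 0.408. Only without KO replicate 3 did the number lower move by over 1.5 times, to 10. Of the 45 higher calls 39 were kept in every alternative, and Mrpl24, Mrpl28, Mrpl35, Mrpl41, Mrps9 and Mrps33 lost theirs in at least 1; of the 5 lower calls 4 were kept and Mrpl13 lost its own in 5. The cause was not tested. Same-numbered KO and WT libraries had correlations of their deviations of 0.101, 0.0811 and -0.0951, and other-numbered ones -0.217 to 0.177. With 3 libraries per group, these values cannot settle whether the replicate numbers pair the libraries. With the replicate block 45 members were higher and 5 lower, with a median of 0.361. With the block Pars2 and Zfp189 missed the threshold, and no other call among the named genes changed. Among 1500 values recomputed, 1441 kept their side of the threshold or stayed within 1.5 times, 18 counts moved, 31 single-gene calls were lost and 9 gained. Only Nrf1, which did not pass in any fit, changed sign, with log2 fold changes of -0.160 to 0.037 when single libraries were left out and the positive value without WT replicate 2.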
